A study of Mus musculus with 81 samples.

Results

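Prox1, Pou3f1, Zbtb20, Bcl11b, Neurod6, Mef2c, Etv1, Lmo4 and Klf9 are transcriptional regulators that differ between the subfields of the hippocampus. These 9 genes, of 57010 gene identifiers in the count matrices, were chosen by name and followed across every population, genotype and maternal diet to show how strictly each marks CA1, CA3 or the dentate gyrus (DG). They and the gene lists used below were chosen with earlier results of these data known. All 9 could be tested between populations, and 8 could be tested between genotypes within the DG, where Neurod6 was too low. A regulator of this kind is set during development and is often kept in the adult neuron, where it holds the neuron's identity or follows its activity. Prox1 is known for keeping granule cells from taking a CA3 fate, Zbtb20 and Pou3f1 for CA1 pyramidal neurons, and Neurod6 for pyramidal neurons of the forebrain.

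RNA was sequenced from neurons cut by laser capture microdissection (LCM) from Nissl-stained sections of the rostral hippocampus of mice at 6 MO. Each of the 81 libraries came from 1 population of 1 mouse: 27 of CA1 pyramidal neurons (CA1 PNs), 26 of CA3 pyramidal neurons (CA3 PNs) and 28 of dentate granule cells (DGCs). The 28 mice were Ts65Dn (Ts), which carry an extra copy of the distal part of chromosome 16 and of a segment of chromosome 17, or disomic (2N), all from C57Bl/6J Eicher × C3H/HeSnJ breeding. Their dams ate a normal diet with 1.1 g/kg choline (ChN) or a supplemented diet with 5.0 g/kg (ChP) through weaning. The groups held 6 2N ChN, 5 Ts ChN, 7 2N ChP and 9 Ts ChP libraries of CA1 PNs, 6, 6, 7 and 7 of CA3 PNs and 6, 6, 7 and 9 of DGCs, in the same order. All 3 populations came from 25 of the 28 mice. The CA3 PN library of mouse 15-145 carries a Ts label, against 2N for its CA1 PN and DGC libraries, and was grouped as 2N. The total expected count per library ran from 358355 to 4744036, with a median of 1105133. Levels are given as CPM (counts scaled to a common library total) with TMM scaling, and log-fold changes (LFC) are base 2. A difference is called where the p of edgeR's quasi-likelihood test, adjusted by Benjamini-Hochberg over all genes tested, is under 0.05.

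The labelled populations were checked against lists of marker genes, given as mean log2 CPM. The list of dentate granule markers (Dsp, C1ql2, Lct, Tdo2, Stxbp6, Calb1, Trpc6 and Dock10) lay between 7.44 and 7.89 in DGCs and at or below 4.20 elsewhere. The list of CA3 markers lay between 5.71 and 6.13 in CA3 PNs. The CA1 libraries were not uniform. In 10 of the 27 the list of CA2 markers (Amigo2, Rgs14, Necab2, Map3k15, Cacng5 and Ccdc3) lay between 5.58 and 7.83, against 1.80 to 3.16 in the other 17, and in those 10 libraries the CA1 list was lower (3.01 to 7.32 against 7.63 to 8.06) and the CA3 list higher (3.34 to 5.57 against 1.51 to 2.80). These libraries were 2 of 6 in 2N ChN, 1 of 5 in Ts ChN, 3 of 7 in 2N ChP and 4 of 9 in Ts ChP. In CA3 PNs the library of mouse 15-140 held the dentate list at 4.20, while the other CA3 libraries stayed at or below 2.48. Results whose call, direction or size turned on these libraries are given with and without them. Such bulk values do not separate fewer cells of a type from less RNA per cell.

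A small part of the DNA sequence before the start of a few members is shown because their levels separate DGCs from both pyramidal populations. The windows came from the RefSeq table of promoters (build GRCm38.p6), which held 8 of the 9 members, and each was found once in GRCm39. Of the 250 bases before the RefSeq start, only the stretch outside every annotated exon of the gene is printed, with the E-box (CANNTG, searched on both strands) in capitals. The stretch of Prox1 lies inside the annotated span of the gene, at chr1:189903209-189903274 (minus strand, GRCm39). Those of the other two end at the base before the annotated gene, that of Neurod6 at chr6:55658327-55658498 (minus strand) and that of Mef2c at chr13:83651903-83652063 (plus strand).
Prox1: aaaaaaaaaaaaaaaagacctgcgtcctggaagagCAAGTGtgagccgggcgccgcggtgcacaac
Neurod6: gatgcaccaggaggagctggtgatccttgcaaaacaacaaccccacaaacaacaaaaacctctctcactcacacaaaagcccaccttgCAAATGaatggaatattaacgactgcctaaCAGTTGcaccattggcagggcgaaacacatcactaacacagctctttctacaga
Mef2c: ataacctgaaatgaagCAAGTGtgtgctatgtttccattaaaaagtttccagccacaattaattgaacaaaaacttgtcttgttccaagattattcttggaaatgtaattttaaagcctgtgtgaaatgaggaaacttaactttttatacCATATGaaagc

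The E-box is the motif that basic helix-loop-helix factors such as Neurod6 recognise. The full windows of Prox1, Neurod6, Mef2c and Zbtb20 held 2 E-boxes each, that of Klf9 held 1, and those of Bcl11b, Etv1 and Lmo4 held 0. An E-box is common, being present in 66% of 27025 promoter windows of the same length. The form CAGATG, which NeuroD factors bind and which is 1 kind of E-box, was present in 14.5% of all windows and among the members only in that of Prox1. These matches describe the letters and not bound sites.

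How strictly each gene marks a population was read first from the levels of single libraries. Prox1, Mef2c and Lmo4 separated 1 population from every library of the others, Bcl11b and Neurod6 were set apart by the population with the least of them, and Pou3f1, Zbtb20, Etv1 and Klf9 overlapped somewhere. Over all genes tested, 2.54% had a highest population that overlapped no library of the others, against 3 of the 9 members. The populations so marked were the DG by 2 members (1.42% of genes), CA3 by 1 (0.795%) and CA1 by 0 (0.327%). In 2.36% the lowest population overlapped none, against 2 of the 9. Because the members were chosen with earlier results of these data known, these shares are no test of them.

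**Figure D1:**
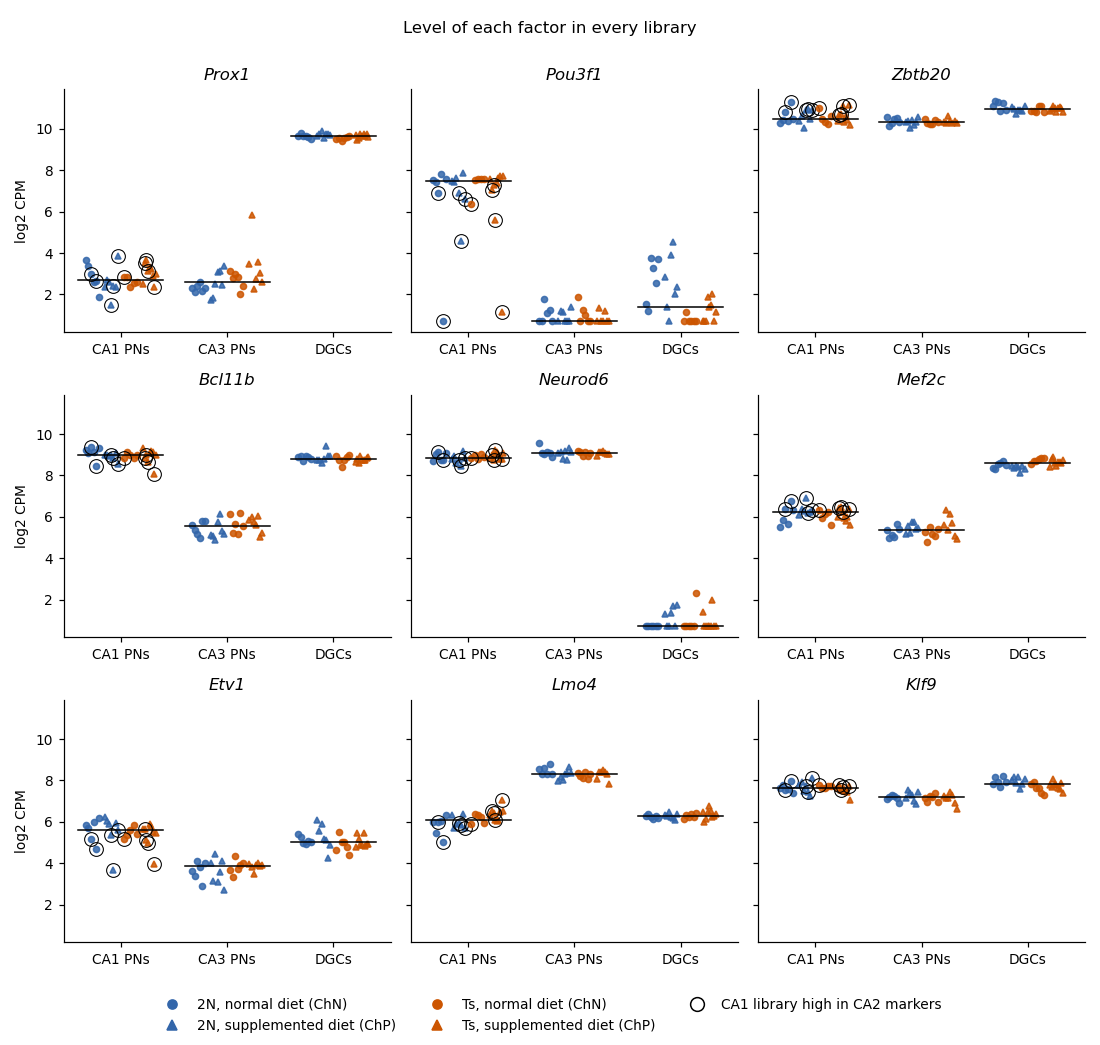
Level of each of the 9 genes in every library, as log2 CPM with a prior count of 2, by population, with a point per library (circle ChN, triangle ChP, blue 2N, orange Ts), a line at the median and an open ring around the 10 CA1 PN libraries rich in CA2 markers. Prox1 sits high in all 28 DGC libraries and Lmo4 in all 26 CA3 PN libraries, while 3 CA1 PN libraries fall far below the rest for Pou3f1.

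Prox1, a homeodomain factor of granule cells (chromosome 1, 189850232 to 189904637, GRCm39, minus strand), was the strictest marker. It lay between 695 and 958 CPM in DGCs (median 804), between 1.14 and 12.8 in CA1 PNs (median 4.92) and between 1.64 and 54.9 in CA3 PNs (median 4.40). Every DGC library was far above every pyramidal library, and the single high CA3 value was that of mouse 15-140. From pooled counts over pooled library totals, without TMM, the DG level was 151 times that of CA1 PNs (95% exact interval 130 to 176). It was 154 times that of CA3 PNs (136 to 176), and both intervals cover counting error only. With TMM the mean level was 805 CPM in DGCs, 5.86 in CA1 PNs and 6.88 in CA3 PNs. In all 25 mice with 3 populations Prox1 was highest in the DG, by at least 3.65 and at the median by 6.60 on the log2 scale, the smallest margin being that of mouse 15-140. The noncoding gene Prox1os runs antisense near Prox1, and the counts rest on the strand of the reads. The fitted LFC was -7.14 ± 0.15 (SE) in CA1 against DG (adjusted p = 4.36e-38) and -7.20 ± 0.15 in CA3 against DG (adjusted p = 3.08e-39). CA1 and CA3 PNs were not separated, with an LFC of 0.06 ± 0.24 (95% interval -0.41 to 0.54, adjusted p = 0.931).

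Mef2c, a MADS-box factor that responds to neuronal activity (chromosome 13, 83652064 to 83815555, plus strand), was the second gene to mark DGCs in every library. Its level was 274 to 470 CPM in DGCs (median 381), 43.8 to 120 in CA1 PNs (median 72.5) and 26.1 to 77.6 in CA3 PNs (median 40.1). The lowest DGC library was more than the highest library of either pyramidal population, but the median level in both pyramidal populations was higher than that of Prox1. Mef2c was highest in the DG in all 25 mice, by 1.48 to 3.23 on the log2 scale. The LFC was -2.43 ± 0.06 in CA1 against DG (adjusted p = 4.02e-46), -3.21 ± 0.07 in CA3 against DG (adjusted p = 3.78e-53) and 0.78 ± 0.07 in CA1 against CA3 (adjusted p = 1.60e-15). Part of the last difference moved with the CA1 libraries rich in CA2 markers, where Mef2c had a median of 80.7 CPM against 61.5 in the other 17, and without them the LFC was 0.63 ± 0.07.

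Lmo4, a LIM-only protein that binds other factors and has no DNA-binding domain of its own (chromosome 3, 143894143 to 143911774, minus strand), was the only member whose highest population was CA3 PNs in every mouse. It lay between 230 and 439 CPM in CA3 PNs (median 321), between 30.9 and 131 in CA1 PNs (median 66.5) and between 61.8 and 108 in DGCs (median 75.5). The CA3 libraries stood above all others, while CA1 PNs and DGCs overlapped over most of their range. The margin of CA3 within a mouse was 1.34 to 2.51 on the log2 scale. The LFC was -2.25 ± 0.07 in CA1 against CA3 (adjusted p = 1.70e-36), 2.05 ± 0.07 in CA3 against DG (adjusted p = 5.60e-36) and only -0.20 ± 0.07 in CA1 against DG (adjusted p = 0.0215).

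Neurod6, a basic helix-loop-helix factor of pyramidal neurons (chromosome 6, 55654807 to 55658326, minus strand), was defined by its absence from DGCs. Its level was 348 to 597 CPM in CA1 PNs (median 464), 431 to 756 in CA3 PNs (median 544) and 0 to 3.39 in DGCs (median 0). No DGC library came near a pyramidal library: 21 of 28 had no count and the largest count was 3. Pooled over libraries, 14500 counts in CA1 PNs stood against 11 in DGCs. Over library totals, without TMM, this is a ratio of 1162 (95% exact interval 649 to 2327). The ratio of CA3 PNs to DGCs was 1284 (717 to 2572), and both intervals cover counting error only. Between the pyramidal populations the difference was small, with an LFC of -0.17 ± 0.06 in CA1 against CA3 (adjusted p = 0.0133), and CA3 was the higher in 21 of 25 mice. This call was lost with library totals in place of TMM (LFC -0.10, adjusted p = 0.154), with DESeq2 (adjusted p = 0.124) and with limma-voom (adjusted p = 0.466). The gene Gm3279 overlaps the region before the start of Neurod6, and both counts rest on the strand of the reads.

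Bcl11b, a zinc finger factor also known as Ctip2 (chromosome 12, 107876656 to 107970417, minus strand), marked CA1 PNs and DGCs together against CA3 PNs. It lay between 263 and 655 CPM in CA1 PNs (median 508), between 28.0 and 70.9 in CA3 PNs (median 46.0) and between 342 and 690 in DGCs (median 440). Every CA3 library was below every other library, and CA1 PNs and DGCs overlapped widely. CA3 was lowest in all 25 mice. The LFC was 3.51 ± 0.09 in CA1 against CA3 (adjusted p = 2.70e-34) and -3.36 ± 0.09 in CA3 against DG (adjusted p = 3.09e-34). CA1 against DG gave 0.15 ± 0.08 (adjusted p = 0.0918), and without the 10 CA1 libraries rich in CA2 markers 0.29 ± 0.05 (adjusted p = 2.90e-07), so that this call differs with the CA1 libraries used. Over 24 alternatives, some of which change the processing, this LFC ran from 0.0017 to 0.29, and it was called in 4.

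Pou3f1, a POU-domain factor of CA1 pyramidal neurons (chromosome 4, 124550600 to 124554448, plus strand), reached 175 CPM at the median in CA1 PNs, against 0 in CA3 PNs and 0.976 in DGCs. Its ranges nevertheless overlapped, with 0 to 236 CPM for CA1 PNs, 0 to 2.06 for CA3 PNs and 0 to 21.3 for DGCs. Only 3 CA1 libraries reached the range of DGCs or lay next to it, and all 3 were rich in CA2 markers: mouse 17-21 (2N ChN) had no count, mouse 16-272 (Ts ChP) had 1 count or 0.583 CPM and mouse 15-336 (2N ChP) had 18 counts or 22.1 CPM. Their CA1 lists were 3.30, 3.01 and 4.68, the lowest of all CA1 libraries. In the 17 libraries with low CA2 markers Pou3f1 lay between 169 and 236 CPM and overlapped no library of another population. From counts pooled over all libraries and their totals, without TMM, the CA1 level was 408 times that of CA3 PNs (exact interval 247 to 729). It was 42.3 times that of DGCs (34.4 to 52.6). The intervals cover counting error only, and the CA1 pool includes the libraries rich in CA2 markers.

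The fitted LFC of Pou3f1 was 8.39 ± 0.30 in CA1 against CA3 (adjusted p = 7.74e-28) and 6.39 ± 0.27 in CA1 against DG (adjusted p = 1.31e-25). Without the 10 libraries these became 9.08 ± 0.16 and 7.19 ± 0.15. The fitted values depend on the prior count because the gene was at or near 0 in CA3 PNs, while the pooled ratios use none. The pooled ratio to DGCs mixes 43 and 40 counts in 2N ChN and 2N ChP with 1 and 7 in Ts ChN and Ts ChP, and so describes neither genotype alone. CA3 PNs and DGCs were not separated over all groups, with an LFC of -2.0 ± 1.3 (adjusted p = 0.204, and 0.0106 without the 10 libraries). They were separated in both 2N groups, with an LFC of -3.35 ± 0.94 in 2N ChN (adjusted p = 0.00375) and -4.18 ± 1.06 in 2N ChP (adjusted p = 0.00144).

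Zbtb20, a zinc finger repressor (chromosome 16, 42696093 to 43462965, plus strand, outside the distal segment that is triplicated in Ts), was abundant everywhere. It lay between 1711 and 2659 CPM in DGCs (median 1988), between 1046 and 2572 in CA1 PNs (median 1454) and between 1068 and 1596 in CA3 PNs (median 1306). The high CA1 values were those of the libraries rich in CA2 markers: they lay between 1637 and 2572 CPM, all above the 1046 to 1601 of the other 17. Zbtb20 was lower than in the DG by 0.38 ± 0.05 on the log2 scale in CA1 PNs (adjusted p = 5.48e-08) and by 0.61 ± 0.05 in CA3 PNs (adjusted p = 6.26e-14). Without the 10 libraries the LFC of CA1 against DG was -0.59 ± 0.04. The LFC of CA1 against CA3 was 0.23 ± 0.06 (adjusted p = 5.68e-04) with all libraries and 0.05 ± 0.04 (adjusted p = 0.274) without the 10.

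Etv1, an ETS-domain factor (chromosome 12, 38828851 to 38920483, plus strand), was lowest in CA3 PNs in all 25 mice. Its level was 11 to 73 CPM in CA1 PNs (median 47.8), 4.85 to 20.0 in CA3 PNs (median 12.9) and 17.1 to 65.7 in DGCs (median 30.5). The 3 ranges overlapped, and the CA1 libraries rich in CA2 markers (median 33.7) lay mostly below the other 17 (median 55.0). The LFC was 1.93 ± 0.11 in CA1 against CA3 (adjusted p = 1.92e-26), -1.51 ± 0.11 in CA3 against DG (adjusted p = 2.35e-20) and 0.43 ± 0.10 in CA1 against DG (adjusted p = 1.60e-04). Without the 10 libraries the last value was 0.56 ± 0.09 (adjusted p = 1.92e-08).

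Klf9, a Krüppel-like factor induced by glucocorticoid and thyroid hormone (chromosome 19, 23118187 to 23148497, plus strand), was the least selective member. Its level was 158 to 299 CPM in DGCs (median 228), 133 to 277 in CA1 PNs (median 199) and 95.4 to 187 in CA3 PNs (median 144). The ranges of all 3 populations overlapped, although CA3 PNs were lowest in each of the 25 mice. The LFC was 0.45 ± 0.05 in CA1 against CA3 (adjusted p = 2.35e-15), -0.65 ± 0.05 in CA3 against DG (adjusted p = 1.35e-25) and -0.19 ± 0.05 in CA1 against DG (adjusted p = 1.45e-04).

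**Figure D2:**
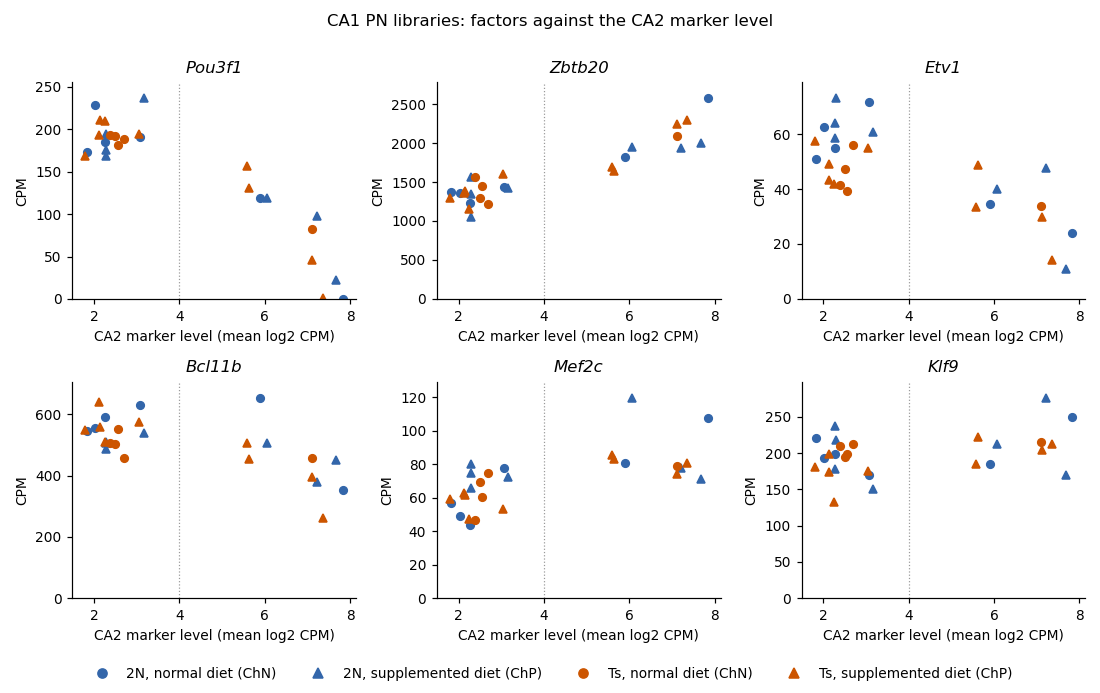
Level of Pou3f1, Zbtb20, Etv1, Bcl11b, Mef2c and Klf9 in the 27 CA1 PN libraries (CPM) against the mean log2 CPM of the 6 CA2 markers, with a point per library and a dotted line between the 17 libraries low and the 10 high in these markers. Pou3f1 falls and Zbtb20 rises in the 10 libraries on the right, which do not overlap the 17 on the left for either gene.

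The split of the CA1 libraries touched the members unequally. Pou3f1 and Zbtb20 did not overlap between the 10 and the 17 libraries, while Prox1, Bcl11b, Neurod6, Mef2c, Etv1, Lmo4 and Klf9 did. The share of all genes that did not overlap in this split was not counted, so these members cannot be set against it. Since these libraries were told apart by the data and are not groups of the study, no test is given. Without them 5 members had a highest population that overlapped no other library, Pou3f1 and Zbtb20 being added, against 4.93% of all genes. The order of populations within a mouse also became firmer: Zbtb20 and Bcl11b were highest in their usual population in 20 of 25 mice with all libraries and in 17 of 17 mice without the 10.

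A single index of specificity, tau, summarises these patterns (0 for equal mean CPM in the 3 populations, 1 for a gene in 1 population only). Prox1 had a tau of 0.992 and Pou3f1 of 0.988, each above 99.8% of the 9895 genes with a mean of at least 10 CPM. Mef2c followed with 0.852 (above 96.8% of genes) and Lmo4 with 0.769 (94.9%). Neurod6 (0.560), Bcl11b (0.505) and Etv1 (0.504) are high in more than 1 population and lay above 87.0%, 83.2% and 83.1% of genes. Zbtb20 (0.282) and Klf9 (0.246) lay above 54.7% and 47.2%, near the middle of all genes.

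Levels of different genes are comparable only per length, for which the deposited TPM, the length-corrected unit of RSEM, were used. In CA1 PNs the median TPM was highest for Neurod6 (201) and Zbtb20 (129), followed by Bcl11b (97.4), Lmo4 (46.4), Pou3f1 (40.5), Klf9 (37.8), Mef2c (18.8), Etv1 (7.29) and Prox1 (0.99). Lmo4 (317) and Neurod6 (282) led in CA3 PNs, and Zbtb20 (229), Prox1 (157), Mef2c (124) and Bcl11b (105) led in DGCs. TPM ordered the populations otherwise than CPM for some members: median Zbtb20 was 153 TPM in CA3 PNs, more than in CA1 PNs, median Etv1 was 8.59 TPM in DGCs, more than in CA1 PNs, and Bcl11b was higher in DGCs than in CA1 PNs, where its CPM had the opposite order. Prox1, low in both, was 1.15 TPM in CA3 PNs, more than in CA1 PNs. TPM depends on the transcript lengths estimated in each library and was not tested.

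**Figure D3:**
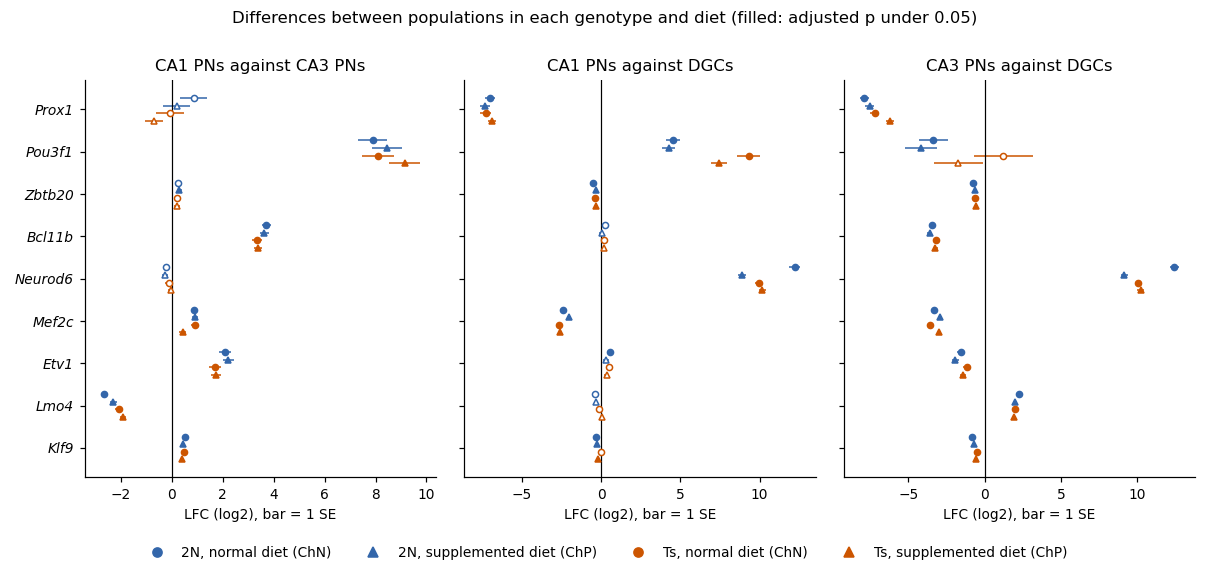
Fitted LFC of each member between populations in each of the 4 groups of genotype and diet, with bars of 1 SE and filled symbols where the difference was called. CA1 against CA3 is led by Pou3f1 and Bcl11b, and the contrasts with the DG by Prox1 on the lower side and Neurod6 on the higher side.

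Averaged over the groups of genotype and diet, 8 of 9 members were called in CA1 against CA3, where 39.4% of the 20493 genes tested were called. CA1 PNs were the higher for 6 and the lower for 2 members, against 19.6% and 19.8% of genes. In CA1 against DG 8 of 9 were called (49% of genes), with 3 higher and 5 lower in CA1 (24.9% and 24.2%). In CA3 against DG 8 of 9 were called (55.9% of genes), with 2 higher and 6 lower in CA3 (27.4% and 28.4%). A call between populations was thus common among all genes. The median LFC of the members was 0.45, -0.19 and -1.51 in these contrasts, and that of all genes 0.01, -0.02 and -0.04. With library totals in place of TMM the median of all genes moved to 0.08, -0.16 and -0.24, and the share of called genes that were higher in the first population moved from 49.8 to 58.9%, from 50.7 to 37.9% and from 49.1 to 35.1%. By absolute LFC, Bcl11b exceeded 98.9%, Lmo4 96.3% and Etv1 94.6% of genes in CA1 against CA3, Prox1 99.9% and Mef2c 94.3% in CA1 against DG, and Klf9 56.6%, 22.2% and 53.9% in the 3 contrasts. No member called under TMM changed direction under that scaling.

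The same contrasts within single groups gave like counts. Between CA1 and CA3 PNs 6, 6, 7 and 6 members were called in 2N ChN, Ts ChN, 2N ChP and Ts ChP, against 18.7, 17.4, 19.4 and 20% of genes. Between CA1 PNs and DGCs 7, 5, 6 and 6 were called, against 27, 24.4, 25.6 and 31.3%, and between CA3 PNs and DGCs 9, 8, 9 and 8, against 34.1, 32.7, 32.8 and 34.5%. The member whose call differed in the last contrast was Pou3f1.

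Whether genotype or diet changed the difference between populations was tested in the same fit, and 0 of 9 members were called in each of the 6 tests (0.0244% of genes in CA1 against DG by genotype, 0.00976% in CA3 against DG by genotype and 0 in the other 4). At an unadjusted p under 0.05 there were 1, 4 and 2 members by genotype in CA1 against CA3, CA1 against DG and CA3 against DG, where 3.93%, 5.15% and 4.97% of genes passed, and 0, 1 and 2 by diet, where 3.35%, 3.72% and 3.23% passed. By genotype these were Lmo4 in CA1 against CA3 (0.48 ± 0.14, Ts minus 2N), Mef2c (-0.39 ± 0.13), Lmo4 (0.32 ± 0.15), Klf9 (0.20 ± 0.09) and Pou3f1 in CA1 against DG, and Prox1 (1.0 ± 0.36) and Klf9 (0.23 ± 0.09) in CA3 against DG, and by diet (ChP minus ChN) Neurod6 in CA1 against DG (-1.54 ± 0.66) and CA3 against DG (-1.56 ± 0.66) and Mef2c in CA3 against DG (0.46 ± 0.13). Both values of Neurod6 rest on the same DGC libraries, which held 11 counts in all, with none in 21 of 28. In CA1 against DG without the 10 CA1 libraries Lmo4 was 0.15, and in CA3 against DG without the CA3 library of mouse 15-140 Prox1 was 0.64. Pou3f1 came nearest to a call: its difference between CA1 PNs and DGCs was larger in Ts than in 2N mice by 3.98 ± 0.82 on the log2 scale (adjusted p = 0.0538). That value was called without the 10 CA1 libraries (3.31 ± 0.57, adjusted p = 1.17e-04) and without the CA1 library of mouse 17-21 alone (adjusted p = 0.0273). With DESeq2 the adjusted p was 0.417 and with limma-voom 0.200. The DGC libraries in this value held 43 and 40 counts in 2N ChN and 2N ChP, and 1 and 7 in Ts ChN and Ts ChP. The calls of Pou3f1 in CA3 against DG in 2N mice and its genotype difference within the DG rest on the same libraries. These are not separate results.

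Within the DG the genotype did separate levels of Pou3f1. In 2N ChN mice the 6 DGC libraries held 0.640, 1.3, 4.20, 8.12, 11.4 and 11.7 CPM, from 1 to 15 counts. In Ts ChN mice 5 of 6 held 0 and the other 0.563 CPM, which is 1 count. The highest Ts and the lowest 2N library held 1 count each, so the groups touched in counts, and their CPM differed there only by library size.

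In ChP mice the 7 2N libraries held 0, 0.980, 2.45, 3.51, 5.61, 13.3 and 21.3 CPM. Of the 9 Ts ChP libraries 4 held 0 and the others 0.560, 0.968, 1.17, 2.05 and 2.37 CPM. Here the groups overlapped, with 5 of 7 2N libraries above every Ts library. Pooled counts were 43 in 2N and 1 in Ts DGCs under ChN, a ratio of 48.7 (exact interval 8.29 to 1969). Under ChP they were 40 and 7, a ratio of 8.86 (3.93 to 23.4). The ratios are over library totals, without TMM, and the intervals cover counting error only.

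The fit gave an LFC of Ts against 2N of -4.71 ± 0.87 (adjusted p = 6.19e-04) under ChN and -2.97 ± 0.64 (adjusted p = 0.00768) under ChP. Under ChN the call held in all 33 alternatives that tested the gene. Pou3f1 passed the filter of 0.1 CPM in 10 libraries through its 2N libraries. Of the Ts libraries 5 of 6 under ChN and 4 of 9 under ChP held 0, against 0 of 6 and 1 of 7 2N libraries. The gene was thus tested because of the group where it is higher. With filterByExpr and with only the groups compared it was not tested under ChN. Under ChP it was lost with limma-voom (LFC -2.18, adjusted p = 0.158) and without mouse 15-336 (LFC -2.49, adjusted p = 0.0614), whose DGC library had the highest value. The level was low, about that of a few counts in a library, and was near 0 in CA3 PNs of both genotypes.

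**Figure D4:**
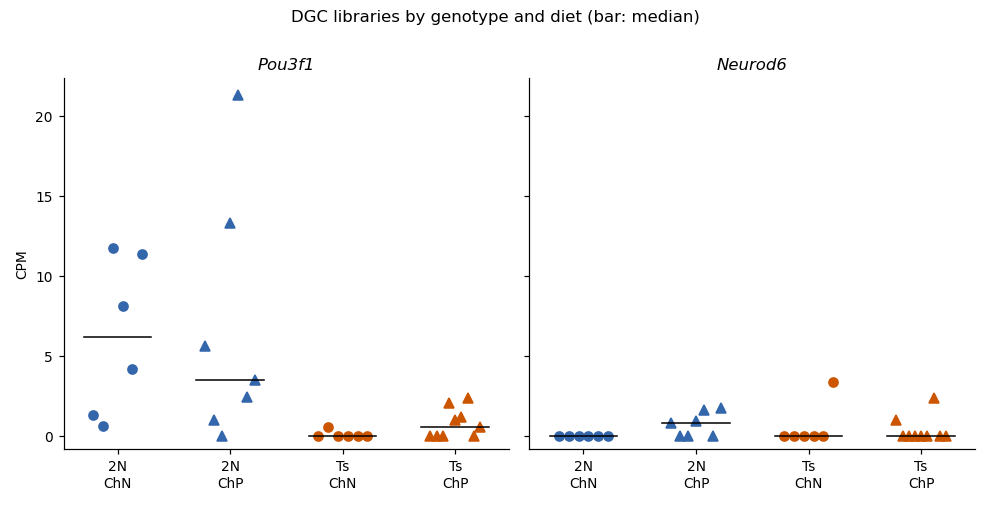
Pou3f1 and Neurod6 in each DGC library (CPM) by genotype and maternal diet, with a point per library and a line at the median. For Pou3f1 all Ts libraries sit at or below 2.37 CPM and 2N libraries reach 11.7 (ChN) and 21.3 CPM (ChP), while Neurod6 stays at or below 3.39 CPM in every group.

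Markers of CA1 PNs overlapped between the genotypes in these libraries. The CA1 list lay between 2.16 and 2.59 in 2N ChN, 2.07 and 2.81 in Ts ChN, 2.25 and 2.84 in 2N ChP and 2.26 and 2.57 in Ts ChP DGCs. Neurod6 had no count in any 2N ChN library, and in Ts ChN DGCs a median of 0 and a highest value of 3.39 CPM. Under ChP the median of Neurod6 was 0.801 CPM in 2N and 0 in Ts DGCs, with highest values of 1.75 and 2.37 CPM. Of other lists, the 6 markers of astrocytes, all measured, lay higher in Ts ChN (3.69 to 4.27) than in 2N ChN DGCs (3.47 to 3.86) with some overlap, and the 8 of inhibitory neurons higher in Ts ChP (3.13 to 3.68) than in 2N ChP (2.66 to 3.28). Their part in the result was not tested. The relatives Pou3f2, Pou3f3 and Pou3f4 were not called in the DG for either diet. In CA1 PNs, where Pou3f1 is abundant, Ts against 2N gave an LFC of 0.17 ± 0.69 under ChN and -0.0023 ± 0.58 under ChP, with wide intervals (-1.19 to 1.53 and -1.15 to 1.14). Without the 10 libraries rich in CA2 markers these were -0.05 ± 0.11 and 0.01 ± 0.11.

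Mef2c was the second member called in the DG. Its range was 318 to 408 CPM in 2N ChN (median 372) and 369.5 to 459 in Ts ChN (median 430), and 274 to 355 in 2N ChP (median 337) and 343 to 470 in Ts ChP (median 400). The ranges overlapped under both diets, with the Ts group the higher in each. The LFC was 0.22 ± 0.08 (adjusted p = 0.301) under ChN and 0.29 ± 0.07 (adjusted p = 0.0205) under ChP. The latter call was lost with limma-voom (adjusted p = 0.0833) and without any 1 of mice 15-140, 15-198, 15-269, 15-336, 16-90 and 17-03 (LFC 0.24 to 0.31 over all mice left out, adjusted p up to 0.122). The inhibitory markers, higher in Ts ChP than in 2N ChP DGCs, moved with this result too. The lists of astrocytes (mean 3.75 in 2N ChP, 4.06 in Ts ChP), oligodendrocytes (3.54, 3.87) and microglia (2.31, 2.56) also did, with overlapping ranges. The part of these lists in the result was not tested.

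In all, 1 of 8 members tested in the DG was called under ChN, against 0.417% of the 16537 genes, and 2 of 8 under ChP, against 0.423%. At an unadjusted p under 0.05 there were 4 members under each diet, against 7.56% of genes under ChN and 7.61% under ChP. Under ChN these were Pou3f1, Mef2c, Zbtb20 (LFC -0.21 ± 0.07, adjusted p = 0.306) and Klf9 (-0.33 ± 0.10, adjusted p = 0.233). Under ChP they were Pou3f1, Mef2c, Etv1 (-0.41 ± 0.17, adjusted p = 0.481) and Klf9 (-0.25 ± 0.09, adjusted p = 0.382). Without mouse 14-125 the value of Etv1 was -0.21. Prox1, the strictest marker of DGCs, gave -0.10 ± 0.06 (95% interval -0.23 to 0.03) under ChN and -0.07 ± 0.06 (-0.18 to 0.04) under ChP.

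The levels behind these values are given for the members that the DG or CA3 tests turn on. Prox1 in DGCs lay between 724 and 894 CPM in 2N ChN (median 802), 695 and 797 in Ts ChN (median 757), 759 and 958 in 2N ChP (median 852) and 708 and 858 in Ts ChP (median 819). All 4 groups overlapped, and the lowest DGC library of any group (695 CPM) was far above the highest pyramidal library (54.9). Klf9 in DGCs lay between 203 and 299 CPM in 2N ChN and 158 and 245 in Ts ChN, and between 190.1 and 288 in 2N ChP and 165 and 265 in Ts ChP. Here the Ts groups reached lower than the 2N groups under both diets but overlapped them. Zbtb20 in DGCs had medians of 2306 CPM in 2N ChN, 1861 in Ts ChN, 1957 in 2N ChP and 2075 in Ts ChP, so that the median of 2N ChN was the highest, with a range up to 2659. Lmo4 in CA3 PNs had medians of 346, 308, 312 and 335 CPM, and Neurod6 in CA3 PNs of 538, 549, 556 and 534, in the same order.

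In CA1 and CA3 PNs 0 of 9 members were called for genotype under either diet by edgeR. In CA1 PNs the background was 0 of genes under ChN and 0.0678% under ChP, and 0 and 1 members had an unadjusted p under 0.05 (3.84% and 3.94% of genes). That 1 was Lmo4, at 50.8 to 80.7 CPM in 2N ChP (median 58.4) and 64.0 to 131 in Ts ChP (median 85.8), with an LFC of 0.46 ± 0.16 (adjusted p = 0.986), and 0.22 ± 0.16 without the 10 libraries rich in CA2 markers. In CA3 PNs the background was 0.317% and 0.227%, and 1 member under each diet had an unadjusted p under 0.05 (7.74% and 5.45% of genes), which was Lmo4 under ChN (LFC -0.25 ± 0.11, adjusted p = 0.577) and Prox1 under ChP (1.47 ± 0.53, adjusted p = 0.606). The value of Prox1 rested on the CA3 library of mouse 15-140 and was 0.51 (adjusted p = 0.998) without it.

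**Figure D5:**
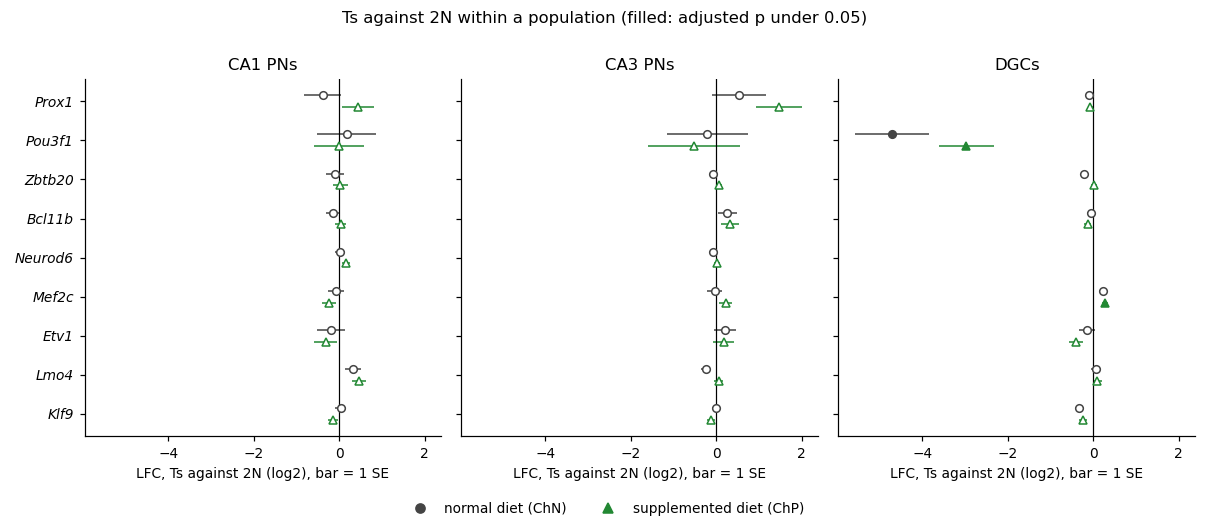
LFC of Ts against 2N for each member in each population and diet, with bars of 1 SE and filled symbols where the difference was called; Neurod6 was not tested in DGCs. Pou3f1 in DGCs lies at -4.71 (ChN) and -2.97 (ChP), and Mef2c under ChP (0.29) is the other called value.

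Maternal choline called 0 of the members by edgeR in any population or genotype, and genotype by diet called 0 (the background was 0.012% of genes in 2N CA3 PNs, 0.00605% in 2N DGCs and 0 in the other 7 tests). At an unadjusted p under 0.05 4 values passed in the 6 tests of diet, in which 3.27% and 3.05% (2N and Ts CA1 PNs), 4.9% and 4.19% (CA3 PNs) and 5.82% and 3.81% (DGCs) of genes passed: Lmo4 in 2N CA3 PNs (LFC -0.23 ± 0.11), Mef2c (0.48 ± 0.17) and Prox1 (1.34 ± 0.54) in Ts CA3 PNs and Zbtb20 in 2N DGCs (-0.19 ± 0.07). Without the CA3 library of mouse 15-140 the value of Prox1 was 0.39 (adjusted p = 1.0) and that of Mef2c 0.35 (adjusted p = 1.0). For genotype by diet, where 3.22%, 4.87% and 3.97% of genes in CA1 PNs, CA3 PNs and DGCs had an unadjusted p under 0.05, the 1 member was Zbtb20 in DGCs (0.23 ± 0.09). In DGCs the 95% interval of ChP against ChN for Prox1 was -0.05 to 0.19 in 2N and -0.02 to 0.21 in Ts mice.

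For each member the genes with the most similar log2 CPM over all 81 libraries were taken by Pearson correlation. These correlations describe differences between 3 populations, which share libraries and depth, and carry no test. Prox1 was most like Dsp (r = 0.989), Grm2 (0.986) and Dock10 (0.980), and Pou3f1 like Htr1b (0.951) and Pex5l (0.942). Neurod6 was nearest to Sv2b (0.99), Runx1t1 (0.988) and Chrm3 (0.988), which were also near 0 in DGCs.

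Mef2c was nearest to Tiam1 (0.976), which is among the genes triplicated in Ts, Rfx3 (0.974) and Epb41 (0.972). Bcl11b was nearest to Bcl6 (0.974), Doc2b (0.963) and Spon1 (0.962), and Lmo4 to Ifi203 (0.961), Exph5 (0.949) and Mndal (0.947). Among the members with overlapping ranges, Pou3f1 had close neighbours (up to 0.951), while Zbtb20, Etv1 and Klf9 had less close ones. Zbtb20 had Ntf3 (0.893), Trpm3 (0.883) and Btbd3 (0.866). Etv1 had Cdk17 (0.886), Sertm1 (0.884) and Dipk2a (0.877), and Klf9 had Dhx33 (0.830), Net1 (0.801) and Dapk1 (0.798). Among the members themselves Prox1 and Mef2c ran together (0.946), Neurod6 ran opposite to Prox1 (-0.983) and Mef2c (-0.955), and Bcl11b ran opposite to Lmo4 (-0.946) and with Etv1 (0.830).

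Some close relatives of the members followed them between the populations and others did not. Of 20 relatives listed, 17 were tested: 15 were called in CA1 against CA3 (9 higher, 6 lower), where 39.4% of all genes were, 12 between CA1 PNs and DGCs (8 and 4), where 49% were, and 12 between CA3 PNs and DGCs (3 and 9 in CA3), where 55.9% were. Pou3f3, a relative of Pou3f1, had the same order, with median levels of 204 CPM in CA1 PNs, 81.7 in DGCs and 23.7 in CA3 PNs. Etv5, the ETS relative of Etv1, was higher in CA1 PNs than in both CA3 PNs (LFC 1.13) and DGCs (3.31). Bcl11a, the relative of Bcl11b, was higher than in DGCs by 0.97 in CA1 PNs and 1.12 in CA3 PNs, while Neurod1 was lower than in DGCs (LFC -2.13 and -0.98), opposite to Neurod6. Klf13 followed Klf9 in being highest in DGCs, with LFC of -1.12 in CA1 and -0.88 in CA3 PNs.

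Of 32 other forebrain transcription factors 31 were tested, and 19 (14 higher and 5 lower in CA1), 24 (15 and 9) and 24 (10 and 14 in CA3) were called in CA1 against CA3, CA1 against DG and CA3 against DG, against the same 39.4%, 49% and 55.9% of all genes. Meis2 was highest in CA1 PNs (LFC 2.59 against CA3 and 5.89 against DG), Nfia was highest in DGCs (LFC -1.16 in CA1 and -1.92 in CA3 PNs) and Nfib likewise (-0.90 and -0.81). Between genotypes in the DG, Klf13 (LFC -0.30, adjusted p = 0.0386) and Sox4 (-1.02, adjusted p = 0.00310) were called under ChN and Neurod2 (-0.32, adjusted p = 0.0180) under ChP, of 16 relatives and 31 other factors tested, against 0.417% and 0.423% of all genes. In CA1 and CA3 PNs 0 of the relatives and 0 of the other factors were called for genotype.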

How the data were processed

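RNA of LCM neurons was made into libraries with a strand-specific total RNA kit. According to the study's methods and processing notes, the authors used FastQC 0.11.9, Trimmomatic 0.39, STAR, Picard 2.26.2 and RSEM, with GRCm39 (mm10 is also listed). The expected counts deposited by the authors are not normalized, and RSEM divides reads that match several genes. The TPM deposited by the authors are per length and were used only for levels between genes.

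Expected counts were rounded. Genes over 0.1 CPM in at least 10 libraries entered edgeR 4.0.16 in R 4.3.3 (TMM, estimateDisp, robust glmQLFit, two-sided glmQLFTest). Populations were compared in 1 fit of 81 libraries with the mouse as a block, since labels give the same animal: residuals of 78 same-mouse pairs had a median correlation over 7647 genes of 0.10 (-0.01 to 0.23), against -0.003 between mice. Genotype and diet were compared in 1 fit per population. A call is a Benjamini-Hochberg adjusted p under 0.05 over all genes tested, and SE is LFC over the root of F. CPM in log2 use a prior count of 2. The tests were tried on simulated data.

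Alternatives were library totals, DESeq2 1.42.0, limma-voom (3.58.1), other filters, no block, only the groups compared, single libraries or mice left out and the label of the CA3 library of mouse 15-145. Omission of the 10 CA1 libraries over a mean of 4 for CA2 markers, and of the CA3 library of mouse 15-140, was chosen after seeing the data. The members and lists were chosen with earlier results of these data known. The rule was to name all 9 members in each comparison, but where no member was called, only those with an unadjusted p under 0.05 are named. Also named are the 3 most similar genes per member. For each other list the rule was at most 4 genes (smallest p between populations). More relatives than that are described, and some factors with large differences, such as Rfx3, are not described between populations. A gene that these rules named is not reported here. Factors of those lists called between genotypes were named after their values were seen. Python steps used numpy 2.4.6, pandas 2.3.3, scipy 1.17.1 and matplotlib 3.10.9.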

Additional observations from a re-analysis of the deposited data

Results flagged for a closer look

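In 107 combinations of member, population, genotype and diet with 4 to 10 libraries, 16 held a library far from the others by Dixon's criterion, which chance meets in about 1 of 20 groups. In CA1 PNs the low values of Pou3f1 were 0 CPM in 2N ChN, 82.6 in Ts ChN, 22.1 in 2N ChP and 0.583 in Ts ChP. Etv1 was low at 11 CPM in 2N ChP and 14.0 in Ts ChP, Bcl11b low at 354 in 2N ChN and Klf9 low at 133 in Ts ChP. Mef2c was high at 120 CPM in 2N ChP and Lmo4 high at 131 in Ts ChP CA1 PNs.

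In CA3 PNs of Ts ChP mice Prox1 was high at 54.9 CPM in mouse 15-140, and mouse 15-199 had a high Zbtb20 (1596) and a low Etv1 (9.46). In DGCs Pou3f1 was 0.563 CPM in 1 Ts ChN library and Neurod6 3.39 in another, with 0 in the other libraries of the group in both cases. Bcl11b was high at 690 CPM in the 2N ChP DGC library of mouse 15-336.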

How the results depend on the processing

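Of the counts of members called or not overlapping, 851 values under alternatives stayed within 1.5 times the main count and 19 moved. In CA1 against DG by genotype 1 member (Pou3f1) was called with no filter, with filterByExpr (minimum count 10), without the CA1 library of mouse 17-21 and without the 10 CA1 libraries rich in CA2 markers, in place of 0. With no filter 1 was called in CA3 against DG by genotype and 1 in Ts against 2N in CA3 ChP, in place of 0. For Ts against 2N in DG ChN 2 were called with no filter, and 0 with filterByExpr and with only the groups compared, where Pou3f1 was not tested. Leaving out each mouse gave 1 to 2, the second being Zbtb20 (LFC -0.27, adjusted p = 0.0320) without mouse 17-172. In DG ChP limma-voom called 0 and filterByExpr 1, and leaving out each mouse gave 0 to 2. Without the 10 CA1 libraries 5 members, in place of 3, did not overlap. The LFC of Prox1 in CA1 against CA3 turned to -0.049 without the 10 libraries and to -0.0032 without mouse 15-145 (up to 0.097 without another mouse), far inside its error. Of single LFC, 1305 kept direction and call, 17 became called and 13 lost the call.

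The mouse block moved no count of members called by over 1.5 times: without it 8 members were called in each averaged contrast and 0 in the tests by genotype or diet, and Pou3f1 in CA1 against DG by genotype was 3.96 (adjusted p = 0.334). For population contrasts only the 12 ChN mice were left out in turn, in the averaged contrasts. Other omissions there were not run. Depth limits what can be said of Pou3f1 and Neurod6 in DGCs, where 1 count is about 1 CPM.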
